A study of Mus musculus with 2 samples.

Results

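The mitosis and spindle genes are 40 mouse genes whose products carry a cell from the end of DNA replication to its division. They were described in single cells of 2 small cell lung cancers. All 40 were found by their symbols among the 27998 genes of the count tables, and all 40 had at least 1 UMI (unique molecular identifier, the tag that counts a captured RNA molecule) in the tumor cells of each tumor. The series holds 2 libraries, TKO1 (tumor 1) and TKO2 (tumor 2), each from 1 tumor of 1 mouse, so no value has a replicate and no test between the tumors is possible. Both mice carried the same alleles, Rb-/-, Trp53-/- and Rbl2-/- (the triple knockout, TKO) with membrane-Tomato or membrane-GFP at Rosa26, in mice of mixed 129/SvOla, 129/SVJ and C57BL/6 descent. Tumors were started by Adeno-CMV-Cre given into the airway, taken 7 months later at an age of 8 to 9 months, dissociated and sorted for live, DAPI-negative cells. The CMV promoter drives Cre in any infected cell of the lung, and no sample without the deletions is in the series.

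Most of these genes are switched on together late in the cell cycle. In resting cells, the pocket proteins, which include the products of *Rb1* and *Rbl2*, hold cell cycle genes off. The protein from *Rbl2*, p130, does so as part of the DREAM complex, which binds a promoter element called CHR. In cycling cells, the same MuvB core joins B-MYB and FOXM1 and turns the late genes on, together with NF-Y, which binds CCAAT boxes. Small cell lung cancer has lost RB1 in nearly every case and is known for rapid division. Whether cells that hold RNA of this group were dividing was not tested here.

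The level of the members was read in the tumor cells of each library, and each level has an exact Poisson 95% interval that covers counting error only. Tumor cells were the retained cells (more than 500 detected genes and less than 10% mitochondrial UMIs) outside clusters with at least 5 markers of another cell type. This kept in tumor 1 a cluster of 370 cells with 4 ciliated cell markers, 3 of them among its 10 leading genes, and 12 neuroendocrine markers. In tumor 2 it kept a cluster of 494 cells with the endothelial gene *Vwf* among its leading genes. They numbered 2990 of 3193 retained cells in tumor 1 and 3381 of 3568 in tumor 2, with medians of 1212.5 and 1983 UMIs per cell. Each cluster of them had at least 8 of 16 neuroendocrine markers at 2-fold or more over macrophage-like cells. The libraries shared 22 barcodes, 11 of them retained. Of the deleted genes, *Rb1* had 77.1 and 15.2 CPM (UMIs of the gene scaled to a common library total, counts per 1000000 UMIs) in tumors 1 and 2. *Rbl2* had 9.46 and 1.80 CPM, and *Trp53*, in the other direction, 49.0 and 63.0 CPM. Since these counts carry no exon positions, they cannot check the deletions.

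The promoters of the members show what they share in sequence, and 8 windows are printed here because the results below turn on these genes. RefSeq promoter sequences (GRCm38.p6, 250 bases before to 50 after the start of the gene) were matched for 33 members. A CHR, written TTTGAA or TTCGAA and searched on both strands, was in 26 of 33 (78.8%), against 19.4% of the promoters of 27025 genes. A CCAAT box, also searched on both strands, was in 27 of 33 (81.8%), against 37.9%, and 2 or more were in 57.6%, against 12.2%. Both motifs were in 25 of 33 (75.8%), against 7.70% of all promoters. Matches were counted separately for each motif and could overlap. A match is a string of letters, not a measured binding site. *Aurkb*, *Ccna2*, *Cdc25c*, *Incenp*, *Spc24*, *Kif20a* and *Tpx2* were not matched.

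The first 7 windows run 5′ to 3′ over 130 bases that end 10 bases into the transcript, in lower case with both motifs in capitals (TTCAAA and ATTGG are the motifs read from the other strand). The genes are the member with most UMIs in tumor 2 (*Ube2c*), genes found in cells with many S-phase UMIs (*Top2a*, and *Cdk1* in tumor 1) or few (*Cdc20* and *Ccnb2*) as described below, a member that was not lower in tumor 1 (*Cenpf*), and a cyclin whose window held no CHR by these letters (*Ccnb1*).
Ube2c (chr2:164769809-164769938, plus strand): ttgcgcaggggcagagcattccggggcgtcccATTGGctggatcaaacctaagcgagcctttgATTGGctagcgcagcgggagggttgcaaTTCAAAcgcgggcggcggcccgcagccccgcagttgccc
Cdk1 (chr10:69352903-69353032, minus strand): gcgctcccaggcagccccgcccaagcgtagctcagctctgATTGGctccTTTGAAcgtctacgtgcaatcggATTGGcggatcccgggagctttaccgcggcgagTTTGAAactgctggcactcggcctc
Top2a (chr11:99024180-99024309, minus strand): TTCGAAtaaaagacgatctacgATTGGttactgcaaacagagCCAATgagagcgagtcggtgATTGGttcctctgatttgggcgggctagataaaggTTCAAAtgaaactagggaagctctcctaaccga
Cdc20 (chr4:118437334-118437463, minus strand): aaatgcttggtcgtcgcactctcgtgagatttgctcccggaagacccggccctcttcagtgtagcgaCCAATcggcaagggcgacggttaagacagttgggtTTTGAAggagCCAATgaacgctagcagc
Ccnb2 (chr9:70421545-70421674, minus strand): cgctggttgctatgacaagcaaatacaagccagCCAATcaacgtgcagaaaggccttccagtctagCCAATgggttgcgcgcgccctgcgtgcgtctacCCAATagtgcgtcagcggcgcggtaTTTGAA
Cenpf (chr1:189688077-189688206, minus strand): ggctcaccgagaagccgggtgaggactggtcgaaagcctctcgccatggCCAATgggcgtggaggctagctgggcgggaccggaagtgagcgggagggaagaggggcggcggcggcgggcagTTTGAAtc
Ccnb1 (chr13:100786477-100786606, minus strand): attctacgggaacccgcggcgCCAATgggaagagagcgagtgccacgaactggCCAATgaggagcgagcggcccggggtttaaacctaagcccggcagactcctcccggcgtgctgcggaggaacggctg

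*Mki67*, the member that ran most against the others between the tumors, had its motifs farther from the start, and its window is therefore the 130 bases that end 71 bases before it. It held 3 CCAAT boxes and 2 CHR matches.
Mki67 (chr7:135716450-135716579, minus strand): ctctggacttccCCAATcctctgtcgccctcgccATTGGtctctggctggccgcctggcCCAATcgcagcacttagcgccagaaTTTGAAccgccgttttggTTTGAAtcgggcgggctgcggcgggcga

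As a group, the members were higher in tumor 2. Their 13938 UMIs in tumor 1 made up 3297 CPM (interval 3243 to 3353), and their 42082 UMIs in tumor 2 made up 5423 CPM (5371 to 5475), a log2 ratio of tumor 1 over tumor 2 of -0.72 (exact interval -0.75 to -0.69). Single members were lower in tumor 1 in 35 of 40 cases, against 36.8% of all genes with at least 10 UMIs. By CPM, 11 of 40 members (27.5%) were at least 2-fold higher in tumor 2 with an interval that excluded 0, against 11.4% of 12927 genes with at least 10 UMIs. None of the 40 were at least 2-fold higher in tumor 1, against 29.9% of all genes. The scaling of the tumors bears on these counts. The median gene had a log2 ratio of 0.37, and ribosomal protein genes took 10.7% of UMIs in tumor 1 and 23.1% in tumor 2. Relative to the median gene, the summed log2 ratio was -1.08, 39 of 40 members were lower in tumor 1, and 21 (52.5%) were at least 2-fold higher in tumor 2, against 17.6% of genes. With TMM factors this count was 18 (45%), against 17.2%. A higher sum can come from more cells that hold the members or from more UMIs in each such cell. The sections on single cells below give shares of cells and mean member UMIs per cell.

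The kinases and cyclins that start mitosis summed to 510.3 CPM in tumor 1 and 1010 CPM in tumor 2 (log2 ratio -0.99, -1.05 to -0.92). *Cdk1*, the kinase that drives mitotic entry, had 161 CPM (149 to 174) and 307 CPM (295 to 319). Its partner cyclin B1 (*Ccnb1*) had 107 and 262 CPM, a 2.44-fold gap, and cyclin A2 (*Ccna2*), which acts earlier, had 51.6 and 141 CPM, a 2.74-fold gap. Cyclin B2 (*Ccnb2*) differed less, with 92.3 and 130.1 CPM (log2 ratio -0.50, -0.67 to -0.33). The polo kinase *Plk1* had 24.4 and 48.1 CPM and the centrosomal kinase *Aurka* 50.4 and 100.3 CPM, both just under 2-fold. For *Cdc25c*, the phosphatase that activates CDK1, no difference was detectable at this depth (23.2 and 21.9 CPM, log2 ratio 0.08, -0.29 to 0.45, and -0.29 relative to the median gene).

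The chromosomal passenger complex, which corrects faulty attachments of chromosomes to the spindle, had the most negative sum of the role groups (log2 ratio -1.04, -1.13 to -0.95). Its scaffold *Incenp* stood at 10.6 CPM (interval 7.77 to 14.3) with 45 UMIs in tumor 1 and at 34.5 CPM (30.5 to 38.9) with 268 UMIs in tumor 2, the largest gap of any member at 3.24-fold. The kinase *Aurkb* had 28.2 and 68.6 CPM, survivin (*Birc5*) 144 and 327 CPM, and borealin (*Cdca8*) 107 and 167 CPM. The first 3 of these 4 subunits were past 2-fold and *Cdca8*, at 1.56-fold, was not.

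The spindle checkpoint holds anaphase until every chromosome is attached, and its genes did not move evenly. The kinases *Ttk* (9.23 and 26.7 CPM) and *Bub1* (11.8 and 29.8 CPM) were past 2-fold, as was *Sgol1* (18.5 and 42.3 CPM), the shugoshin that protects cohesin at centromeres. *Bub1b* (13.5 and 20.1 CPM) and *Bub3* (296 and 425 CPM) were not. *Mad2l1*, which encodes MAD2, had 82.8 and 94.1 CPM (log2 ratio -0.18, -0.37 to 0.00). The group summed to a log2 ratio of -0.56.

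Members of the NDC80 complex, which ties the kinetochore to microtubules, were split. *Spc25* went from 80.2 CPM (interval 71.9 to 89.2) to 229 CPM (219 to 240.0) between tumors 1 and 2, and *Nuf2* had 13.5 and 36.3 CPM. *Spc24*, the partner of *Spc25*, had 147 and 229 CPM, a 1.55-fold gap, and *Ndc80* itself had 36.9 and 35.2 CPM (log2 ratio 0.07, -0.22 to 0.36, and -0.30 relative to the median gene). The intervals of *Spc25* and *Spc24* (-1.69 to -1.35 and -0.77 to -0.50) do not overlap, nor do those of *Nuf2* (-1.87 to -1.02) and *Ndc80*. The centromeric histone *Cenpa* had 186 and 367 CPM and the kinetochore motor *Cenpe* 40.5 and 69.7 CPM. *Cenpf* had 177 CPM (165 to 190.1) and 160 CPM (151 to 169), a log2 ratio of 0.15 (0.01 to 0.28) that is -0.22 relative to the median gene.

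Among genes of the anaphase-promoting complex and its targets, *Ube2c*, the ubiquitin-conjugating enzyme of that complex, had 229 CPM (215 to 244) and 604 CPM (587 to 622), a 2.64-fold gap. Its activator *Cdc20* had 161 and 193 CPM, securin (*Pttg1*) 137 and 188 CPM, and *Cdca3* 96.5 and 148 CPM. *Ube2c* alone gave 4690 of the 42082 member UMIs of tumor 2. None of the motors and assembly factors of the spindle passed 2-fold. *Kif11*, the motor that pushes the poles apart, had 23.4 and 38.4 CPM, *Tpx2*, the activator of Aurora A, 39.5 and 58.8 CPM, *Nusap1* 108 and 155 CPM, *Hmmr* 34.5 and 41.9 CPM, and the chromokinesin *Kif22* 60.6 and 64.0 CPM.

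Genes of the spindle midzone and cytokinesis, the last step of division, differed least among the groups of 4 or more members (log2 ratio -0.27, -0.38 to -0.16). *Kif20a* had 14.2 and 23.5 CPM and *Kif23* 23.2 and 25.9 CPM. *Racgap1*, the partner of *Kif23* in centralspindlin, had 79.96 and 125 CPM, and *Ect2*, the exchange factor they recruit, 27.7 and 40.3 CPM. *Prc1*, which bundles midzone microtubules, had 97.7 CPM (88.5 to 108) and 77.4 CPM (71.4 to 83.9), a log2 ratio of 0.34 that is -0.03 relative to the median gene. In the chromosome structure group, topoisomerase II alpha (*Top2a*) had 172 and 225 CPM. *Mki67*, the gene of the proliferation marker Ki-67, was higher in tumor 1, at 81.1 CPM (interval 72.8 to 90.2) against 44.8 CPM (40.2 to 49.8), a log2 ratio of 0.86 (0.64 to 1.07). It was the only member higher in tumor 1 under each of the scalings, at 0.49 relative to the median gene.

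**Figure D1:**
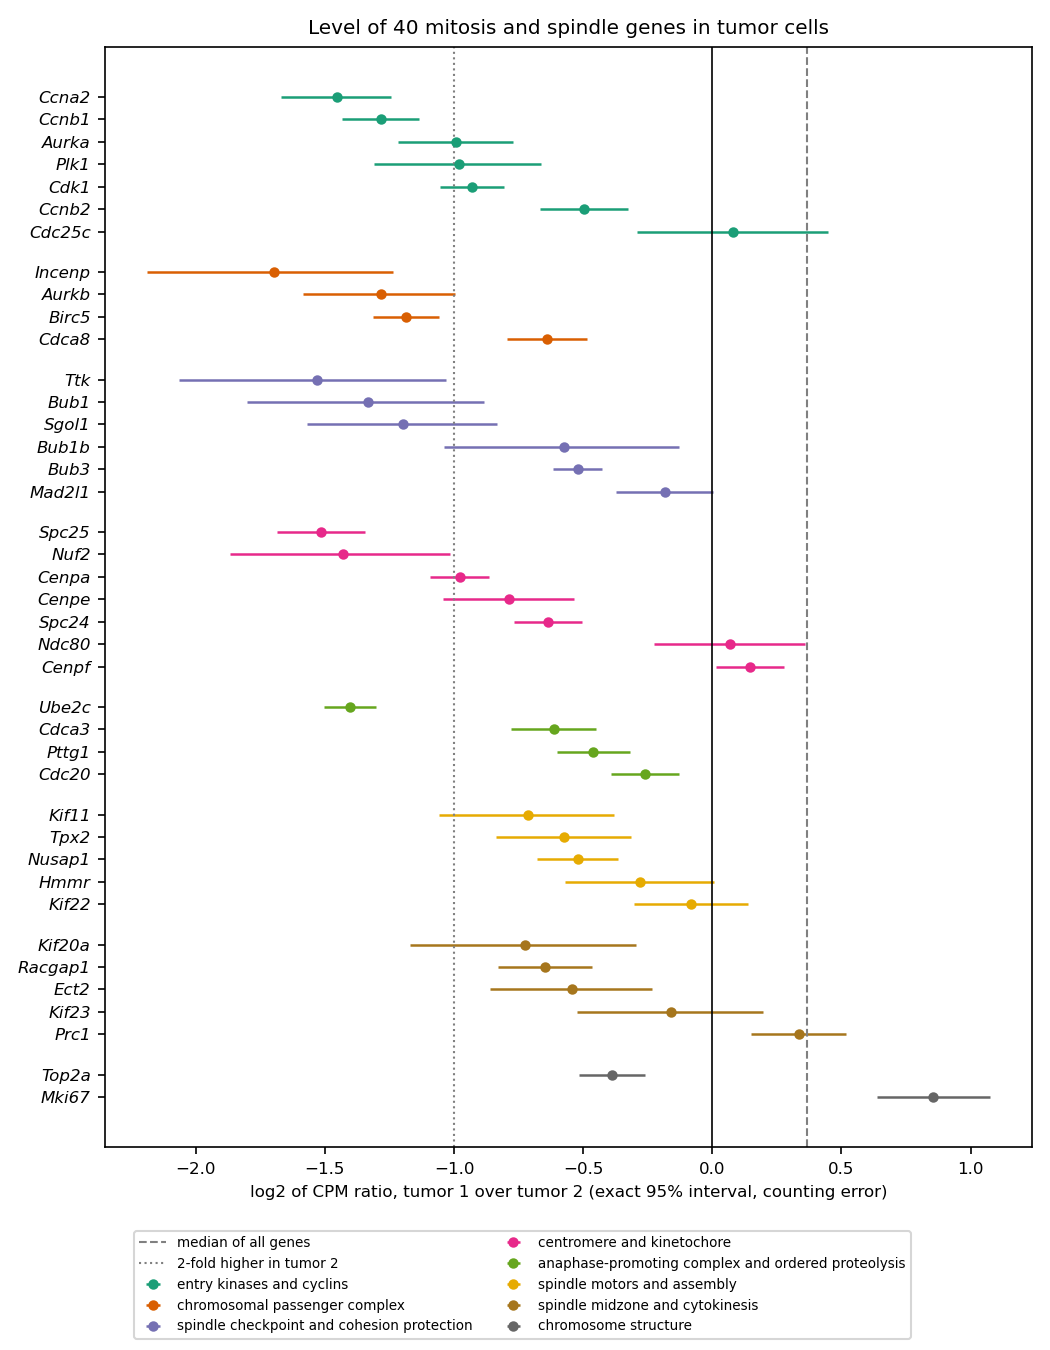
Log2 ratio of CPM, tumor 1 over tumor 2 (horizontal axis), for each of the 40 members (rows, colored by role), with exact 95% intervals for counting error. Most points lie left of 0, from -1.70 for Incenp, while Mki67 stands apart at 0.86, and the dashed line marks the median of all genes at 0.37.

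The further mitosis genes and the S-phase genes had lower sums in tumor 1 by CPM, and the regulators a higher one. Of 105 further mitosis genes, 26 were at least 2-fold higher in tumor 2 and 2, *Stag2* and *Wapl* of the cohesin machinery, in tumor 1, and their sum had a log2 ratio of -0.41 (-0.44 to -0.39). Of all 12927 genes with at least 10 UMIs, 11.4% were at least 2-fold higher in tumor 2 and 29.9% in tumor 1. Relative to the median gene, the counts of the 105 were 40 and 1, against 17.6% and 22.2% of all genes. The kinase subunits *Cks1b* (164 and 529 CPM) and *Cks2* (92.3 and 272 CPM) and the kinetochore gene *Pmf1* (64.8 and 186 CPM) were past 2-fold, whereas *Pbk* (126 and 109 CPM) and the anaphase-promoting complex subunit *Anapc5* (302 and 253 CPM) were not. Of 38 genes of S phase, the time of DNA replication, 10 were past 2-fold in tumor 2 and 3 in tumor 1, with a summed log2 ratio of -0.68. Relative to the median gene, these counts were 17 and 0. The shares of all genes given above apply here too. *Dut* (453 and 1005 CPM) and *Rrm2* (117 and 354 CPM), which supply nucleotides, were past 2-fold, and the sliding clamp *Pcna* (346 and 427 CPM) was not. The 6 genes of regulators of the late promoters had a summed log2 ratio of 0.31 (0.16 to 0.45), which is -0.06 relative to the median gene. Of these, *Foxm1* (4.49 and 13.1 CPM, 19 and 102 UMIs) and *Mybl2* (4.73 and 10.3 CPM, 20 and 80 UMIs) were past 2-fold in tumor 2, and these were named after their values were seen. The MuvB subunits *Lin9* (59.1 and 40.5 CPM) and *Lin37* (56.1 and 31.6 CPM) had ratios of the opposite sign (log2 0.55 and 0.83), where the median gene had 0.37. The other MuvB subunits of the list, *Lin54* (log2 0.37, -0.03 to 0.76) and *Lin52* (-0.27, -0.72 to 0.18), had intervals that include 0.

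The share of tumor cells with a UMI of a member was compared after each cell was thinned to 1000 UMIs, because the libraries differ in depth. This left 2150 cells of tumor 1 and 3020 of tumor 2, and left out 840 and 361 cells with fewer UMIs. The median share over the 40 members was 5.02% in tumor 1 and 6.56% in tumor 2, and without thinning it was 6.52% and 13.96%. Shares ran from 0.605% for *Ttk* to 23.5% for *Bub3* in tumor 1, and from 1.69% for *Bub1b* to 30.3% for *Bub3* in tumor 2. *Ube2c* was held by 9.40% (exact Clopper-Pearson 95% interval 8.19 to 10.7) of tumor 1 cells and 27.4% (25.8 to 29.0) of tumor 2 cells, *Birc5* by 7.63% and 20.2%, *Cenpa* by 9.07% and 21.0%, and *Cdk1* by 10.6% and 19.9%. For 29 of 40 members (72.5%) the interval lay higher in tumor 2, against 15% of all genes. *Mki67*, held by 5.77% and 3.61% of cells, was the 1 member whose interval lay higher in tumor 1, against 28.7% of all genes, but its share in tumor 1 was not above the 6.10% of macrophage-like cells. The other 10 overlapped.

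Macrophage-like cells gave the level of these RNAs in another cell type of the same libraries. There the 40 members made up 1119 CPM (952 to 1306) and 2122 CPM (1936 to 2321), which is 33.9% and 39.1% of the tumor cell level. The 16 neuroendocrine markers, which macrophages should lack, stood in the same cells at 19.1% and 33.8% of their tumor cell level. The part of RNA from broken cells in these levels was not tested. Shares of macrophage-like cells with a UMI had medians of 1.22% over 82 cells and 3.12% over 112 cells (median depths of 1314 and 1639 UMIs before thinning). The interval of tumor cells lay above that of macrophage-like cells for 5 members in tumor 1, against 5.4% of all genes, and for 15 in tumor 2, against 7.46%. *Cdk1* (10.6% of tumor cells against 2.44%) and *Ube2c* (9.40% against 1.22%) showed the contrast in tumor 1, and *Cdk1* (19.9% against 5.36%) and *Cdc20* (12.5% against 1.79%) in tumor 2. For the remaining 35 members of tumor 1 and 25 of tumor 2, a difference from macrophage-like cells was not detectable with so few of those cells. The share in tumor cells was at or below theirs for 5 members of tumor 1, *Bub1*, *Bub1b*, *Cenpa* (9.07% against 13.4%), *Tpx2* and *Mki67* (5.77% against 6.10%), and for *Aurkb* and *Hmmr* of tumor 2. Taken alone, these 7 shares did not stand above the level of macrophage-like cells, which rests on few cells. Whether they are background was not tested. Club-like cells of tumor 1 (105 cells) had 915 CPM of the members, and an unnamed cluster of 66 cells in tumor 2 with club and neuroendocrine markers had 2543 CPM.

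**Figure D2:**
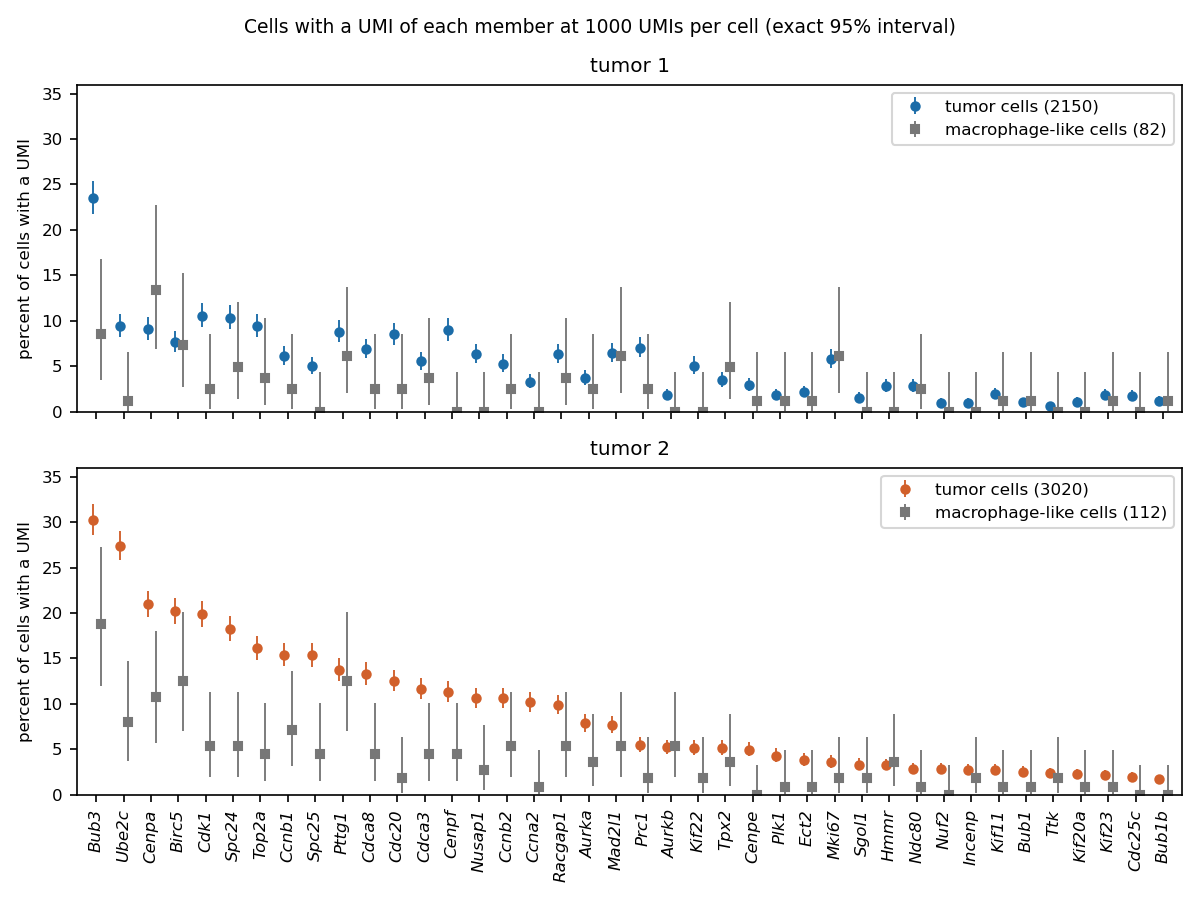
Percent of cells with a UMI of each member (vertical axis) at 1000 UMIs per cell, in tumor cells (circles) and macrophage-like cells (squares) of tumor 1 (upper panel) and tumor 2 (lower panel), with exact 95% intervals. Ube2c rises from 9.40% to 27.4% of tumor cells between the panels, while the intervals of macrophage-like cells are wide because only 82 and 112 of them remained.

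Counted per cell, the members were spread differently in the tumors. In tumor 1, 44.5% (42.4 to 46.6) of tumor cells held none of the 40 members and 12.2% (10.9 to 13.7, 263 cells) held at least 5. In tumor 2, 24.7% (23.2 to 26.3) held none and 32.8% (31.2 to 34.6, 992 cells) held at least 5. Cells with at least 5 members are called mitosis-rich here, which is a range of a score and not a cell type, and 38 and 28 cells of tumor 1 and 177 and 158 cells of tumor 2 lay at 4 and 5 members. Between 3 and 7 members were held by 7.95% of cells in tumor 1 and 27.4% in tumor 2. At the top the order turned, as 15 or more members were held by 3.91% (3.13 to 4.81) of cells in tumor 1 and 1.95% (1.49 to 2.51) in tumor 2, with maxima of 26 and 20 members. Mitosis-rich cells held a mean of 11.8 ± 4.82 members (SD over 263 cells) in tumor 1 and 8.74 ± 3.21 (SD over 992 cells) in tumor 2. They carried 75.1% and 80.3% of all member UMIs. Their means were 18.3 and 12.1 member UMIs per thinned cell, against 0.85 and 1.45 in the other tumor cells. Before thinning they were deeper than the other tumor cells, with medians of 1916 against 1353 UMIs in tumor 1 and 2424 against 1998 in tumor 2. Without the clusters led by markers of another cell type, cells with at least 5 members were 13.6% of tumor 1 and 39.1% of tumor 2. Among macrophage-like cells, 6.10% (5 of 82) and 11.6% (13 of 112) held at least 5 members.

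**Figure D3:**
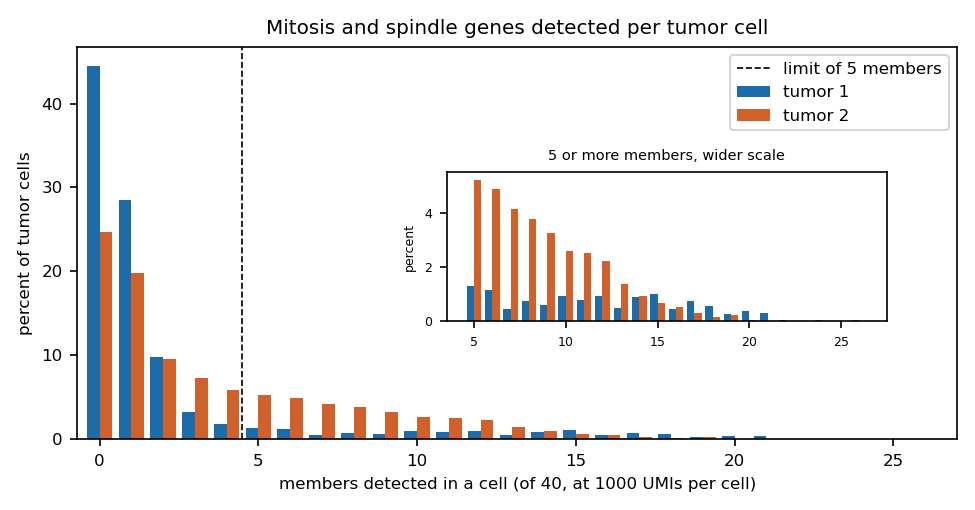
Percent of tumor cells (vertical axis) by the number of the 40 members detected at 1000 UMIs per cell (horizontal axis), with the range from 5 members upward enlarged in the inset. Tumor 1 has more cells at 0 members (44.5% against 24.7%) and reaches 26 members, while tumor 2 has more cells at 3 to 7 members (27.4% against 7.95%) and ends at 20.

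Within the cells that held at least 5 other members, the gap between the tumors was no longer toward tumor 2. A member was held by a median of 23.3% of such cells in tumor 1 (250 to 263 cells, by member) and 14.3% in tumor 2 (924 to 991 cells). The share was higher in tumor 1 for 35 of 40 members, with intervals apart for 20 (50%), against 9.83% of all genes in cells with at least 5 members. None had intervals apart toward tumor 2, against 4.61% of all genes. *Ube2c* was held by 65.1% (58.9 to 70.9) and 61.0% (57.8 to 64.2) of these cells, *Cdk1* by 45.7% and 43.8%, *Birc5* by 55.0% and 49.0%, and *Spc25* by 32.6% and 36.5%, and the intervals of these 4 overlapped. *Mki67* was held by 29.3% (23.9 to 35.3) and 7.96% (6.34 to 9.83), *Prc1* by 40.8% and 13.7%, *Cenpf* by 54.7% and 28.0%, and *Cdc20* by 52.3% and 31.9%. These cells are chosen by other members of the same group, and a range that starts at 5 takes in more cells of low count in tumor 2, as the values per cell above show. At 8 or more other members, a limit added after these values were seen, 35 members were higher in tumor 1, 17 of them with intervals apart. The matching share of all genes is not given for this limit, and its cells are also chosen by other members. These 2 counts therefore cannot settle what the limit of 5 does to the comparison.

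Where the mitosis-rich cells lay was read from clusters made without the members and the other cell cycle lists. In tumor 1 they made up 98.4% (121 of 123) of cluster 8, led by the histone gene *Hist1h1b*, and 33.98% (88 of 259) of cluster 3, led by *Nefl* and *Pabpc4*. They were 0.280% of cluster 0, led by *Dcpp1* and *Calca*, and 0.256% of cluster 1, led by *Ddit3* and *Gstm1*. In tumor 2 they made up 72.7% (68.5 to 76.7) of cluster 2 (*Epcam*, *Cldn7*), 75.1% (70.3 to 79.6) of cluster 4 (*Arl6ip1*, *2810417H13Rik*), and 35.2% (29.5 to 41.4) of cluster 6, led by *Spp1* and *Cartpt*. The lowest share of a tumor 2 cluster was 5.20% (3.51 to 7.38), in cluster 0, led by *Vwf* and *Tmem158*. Genes outside the lists that are themselves tied to the cell cycle, such as *Hmgb2*, stayed in this clustering. Of the 16 neuroendocrine markers, 13 were detected in a smaller share of mitosis-rich than of other tumor cells in tumor 1, with intervals apart for 8, and 3 in a larger share, with intervals apart for 0. In tumor 2, 14 had a smaller share, with intervals apart for 2, and 2 a larger one, with intervals apart for 1. *Resp18* (50.2% against 75.7%) and *Chga* (35.0% against 56.1%) were among the lower ones in tumor 1. *Ncam1* had the larger share in mitosis-rich cells of each tumor (13.7% against 9.49%, and 9.88% against 6.76%). The same counts over all genes are not given, so these marker counts have no background to be read against. They also include markers near the floor, 1 of them in 0 of 263 mitosis-rich and 1 of 1887 other cells of tumor 1.

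Genes outside the members whose UMIs followed their sum most closely over thinned tumor cells were looked for among 6441 genes in tumor 1 (2150 cells) and 5377 in tumor 2 (3020 cells) that averaged 0.02 UMIs or more in a cell. *Hmgb2*, a chromatin protein, came first in each, with Pearson r of 0.63 and 0.56 over cells, and was held by 92.0% and 91.1% of mitosis-rich cells and by 35.0% and 48.8% of the others. *Arl6ip1* (0.50 and 0.44), *Cks1b* (0.50 and 0.37), *Cks2* (0.45 and 0.39), the condensin subunit *Smc4* (0.45 and 0.39) and the histone gene *H2afx* (0.47 and 0.32) were among the first 10 in both tumors. *Pbk*, *H2afz*, *Cdkn2d* and *Tubb5* completed the list of tumor 1, and *Calm2*, *H1fx*, *Lockd* and *H1f0* that of tumor 2. Cells of 1 library share its preparation, so these r values are descriptions and have no p-value.

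The order in which members appear together was first described by how many of the other 39 were detected beside each. The median over members was 10.7 other members in tumor 1 and 7.83 in tumor 2. *Plk1* (14.1 and 8.54), *Kif20a* (13.9 and 8.74), *Kif23* (12.1 and 9.34), *Hmmr* (12.1 and 8.36) and *Nusap1* (11.8 and 8.95) were among the 10 highest in each tumor, so cells that held one of them held many others on average. *Bub3* was lowest, with 3.61 and 4.62 others, and *Mad2l1*, *Spc24*, *Racgap1*, *Top2a* and *Cdk1* were also in the 10 lowest of each. Members differed in how many cells held them. In tumor 1, *Kif20a* was held by 23 cells, *Plk1* by 39 and *Bub3* by 505, but *Nusap1* and *Racgap1*, at opposite ends, by 137 each. How far this ranking follows the number of holding cells was not tested. *Bub3* was the sole member in 43.8% of the tumor 1 cells and 24.4% of the tumor 2 cells that held it, *Spc24* in 17.6% and 7.99%, and *Cdk1* in 15.4% and 6.17%. By contrast, *Plk1* was sole in 0 of 39 cells and in 2.31%, and *Kif23* in 0 of 39 and 0 of 64.

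A stepwise view bins the same counts along the number of other members, so it is not an independent measure. Different members are shown for each tumor. In tumor 1, *Cdk1* was held by 3.53% of cells with no other member, 6.54% of cells with 1 to 2, 23.9% with 3 to 4, 29.8% with 5 to 9 and 54.9% with 10 or more. *Plk1* was held by 0% of cells with none or with 1 to 2, by 0.917% with 3 to 4, by 7.45% with 5 to 9 and by 18.5% with 10 or more. In tumor 2, *Birc5* went from 0.401% with none through 5.51% and 22.2% to 43.4% and 60.5%, and *Ube2c* from 5.33% through 10.5% and 31.0% to 52.5% and 79.1%. *Bub3* rose little in comparison, from 23.0% with none to 49.5% with 10 or more in tumor 2. The bins hold 992, 810, 92, 94 and 162 cells for *Cdk1* in tumor 1 and similar numbers for *Plk1*, so the upper steps rest on few cells there. In tumor 2 the upper bins are larger, with 749, 908, 418, 634 and 311 cells for *Birc5*.

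The S-phase list, which shares no gene with the members, gave a second axis. Tumor cells had a mean of 3.50 UMIs of the list in tumor 1 and 5.45 in tumor 2. Cells that held *Cdk1* had 5.55 ± 0.252 (SEM over 227 cells) in tumor 1, a ratio of 1.59 to all tumor cells, and 5.98 ± 0.151 (SEM over 600 cells) in tumor 2, a ratio of 1.10. *Mki67* (1.47 and 1.16), *Spc25* (1.39 and 1.13), *Top2a* (1.37 and 1.19), *Nuf2* (1.37 and 1.18), *Spc24* (1.34 and 1.16) and *Ndc80* (1.31 and 1.23) were in the 10 highest ratios of each tumor. *Pttg1* (0.90 and 0.77), *Cdc20* (0.92 and 0.83), *Ccnb2* (0.95 and 0.87), *Cdc25c* (0.96 and 0.77) and *Cenpa* (0.97 and 0.79) were in the 10 lowest of each. The high end thus held *Ndc80*, *Nuf2*, *Spc24* and *Spc25*, the 4 subunits of the NDC80 complex. *Mki67* and *Cenpa* have a place here although their shares in tumor 1 were not above those of macrophage-like cells. The order of the 40 ratios had a Spearman rho of 0.80 between the tumors, given as a description over genes that share 2 libraries. Since a cell is thinned to a fixed total, a cell rich in members has fewer UMIs left for other genes. A second comparison was therefore made within cells that held at least 5 other members, an addition made after the first values were seen. Its ratio divides the mean of such cells that held the member by the mean of those that did not. The first ratios are over all tumor cells, so the sizes of the 2 sets of ratios are not compared, only their order. There the rho was 0.72, *Mki67* (1.34 and 1.09), *Spc24* (1.21 and 1.12), *Spc25* (1.29 and 1.08) and *Top2a* (1.26 and 1.08) stayed in the 10 highest of each tumor, and *Cdc20* (0.64 and 0.68), *Cenpa* (0.64 and 0.68) and *Pttg1* (0.75 and 0.67) at the low end. *Ndc80* (1.05, rank 17 of 40) and *Nuf2* (1.06 over 17 cells, rank 15) left the 10 highest of tumor 1, and *Cdk1*, first in tumor 1 at 1.36, had 1.00 in tumor 2. *Ccnb1* joined the 10 lowest of each tumor in that comparison (0.75 and 0.82).

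**Figure D4:**
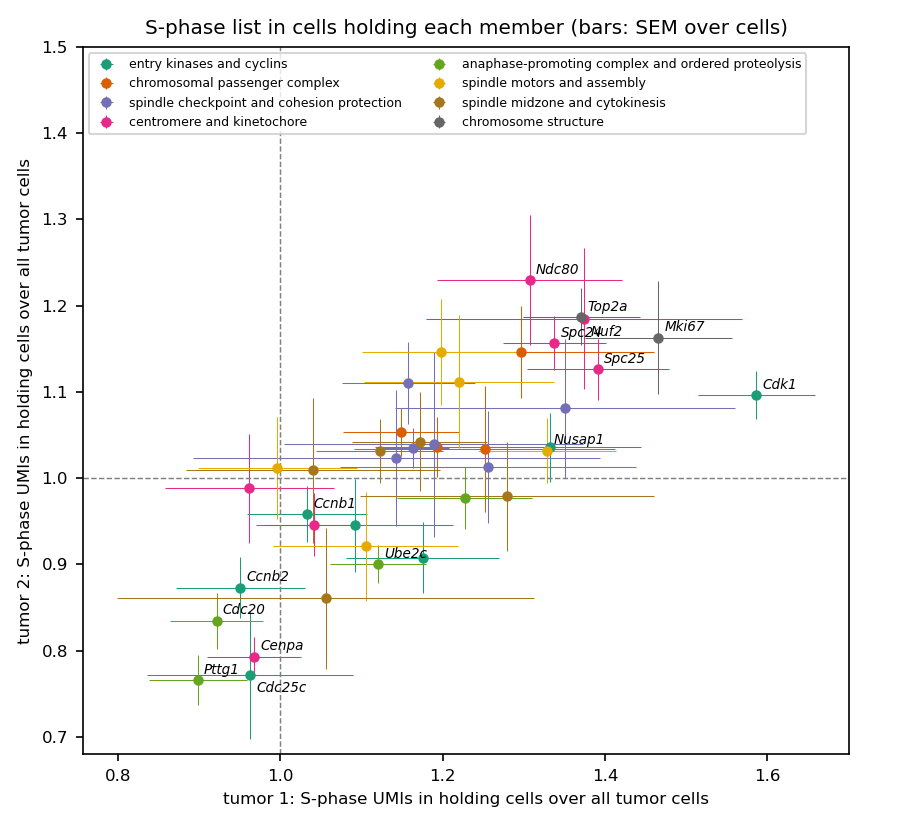
Mean UMIs of the S-phase list in cells that hold a member, divided by the mean over all tumor cells, in tumor 1 (horizontal axis) and tumor 2 (vertical axis), 1 point per member, colored by role, with bars of 1 SEM over cells. Cdk1, Mki67, Top2a and the NDC80 complex genes lie at the upper right, Pttg1, Cdc20, Cenpa, Cdc25c and Ccnb2 at the lower left, and the order has a Spearman rho of 0.80.

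Pairs of members were found in the same cell more often than the product of their shares gives, in 772 of 780 pairs of tumor 1 and 775 of 780 of tumor 2. All 8 exceptions of tumor 1 were pairs seen in 0 cells, each of members with few holding cells, such as *Incenp* and *Ttk*. The median ratio of observed to product was 5.46 in tumor 1 and 2.21 in tumor 2. The ratio can go higher where a member is held by fewer cells, as most were in tumor 1, so these medians are not compared between the tumors. Among pairs seen in at least 20 cells, the highest of tumor 1 was *Birc5* with *Kif20a*, with 20 cells against 1.75 by product (ratio 11.4), followed by *Ccnb2* with *Plk1* (10.7) and *Aurkb* with *Cdca3* (10.2). In tumor 2 it was *Cdc20* with *Kif23*, with 31 cells against 8.01 (ratio 3.87), followed by *Prc1* with *Mki67* (3.72) and *Plk1* with *Nusap1* (3.69).

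Partners that act in 1 protein complex, chosen after the values were seen, were not all among the highest pairs. *Aurkb* and *Birc5* of the passenger complex had 29 shared cells against 2.97 (ratio 9.75) in tumor 1 and 66 against 31.7 (2.08) in tumor 2. *Birc5* and *Cdca8* of the same complex had 7.35 and 2.02, *Cdk1* and *Ccnb1* had 4.52 and 2.26, and *Spc24* and *Spc25* had 4.34 and 1.95. *Kif23* and *Racgap1* had 4.83 (12 cells) and 1.27 (8 cells), while *Ndc80* and *Nuf2* had 5.04 (3 cells) and 3.34 (8 cells). *Birc5* and *Incenp* had 5.62 (9 cells) and 2.51 (42 cells). *Aurka* and *Tpx2* had 4.72 and 2.78, and *Cdk1* and *Ccnb2* had 3.94 and 1.93. The ends of the S-phase order, which were set from the same cells, also differed in the median ratio of their pairs. Members of the low end were found together more than members of the high end, with median ratios of 6.26 over 10 pairs and 5.04 over 15 pairs in tumor 1, and of 2.69 and 1.96 in tumor 2. Pairs of 1 low and 1 high member had the lowest median, 4.64 over 30 pairs in tumor 1 and 1.83 in tumor 2. *Cdc20*, for example, went with *Ube2c* at 6.11 and 2.56 and with *Cenpa* at 5.78 and 2.63, but with *Mki67* at 3.79 and 1.83 and with *Spc24* at 3.44 and 1.42. Ranges overlapped in tumor 1, at 0 to 7.25 for pairs of 1 low and 1 high member and 2.97 to 7.65 within the high end. With cells summed over pairs, the ratios of these 2 sets were close, 4.23 and 4.47 in tumor 1 and 1.77 and 1.95 in tumor 2.

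**Figure D5:**
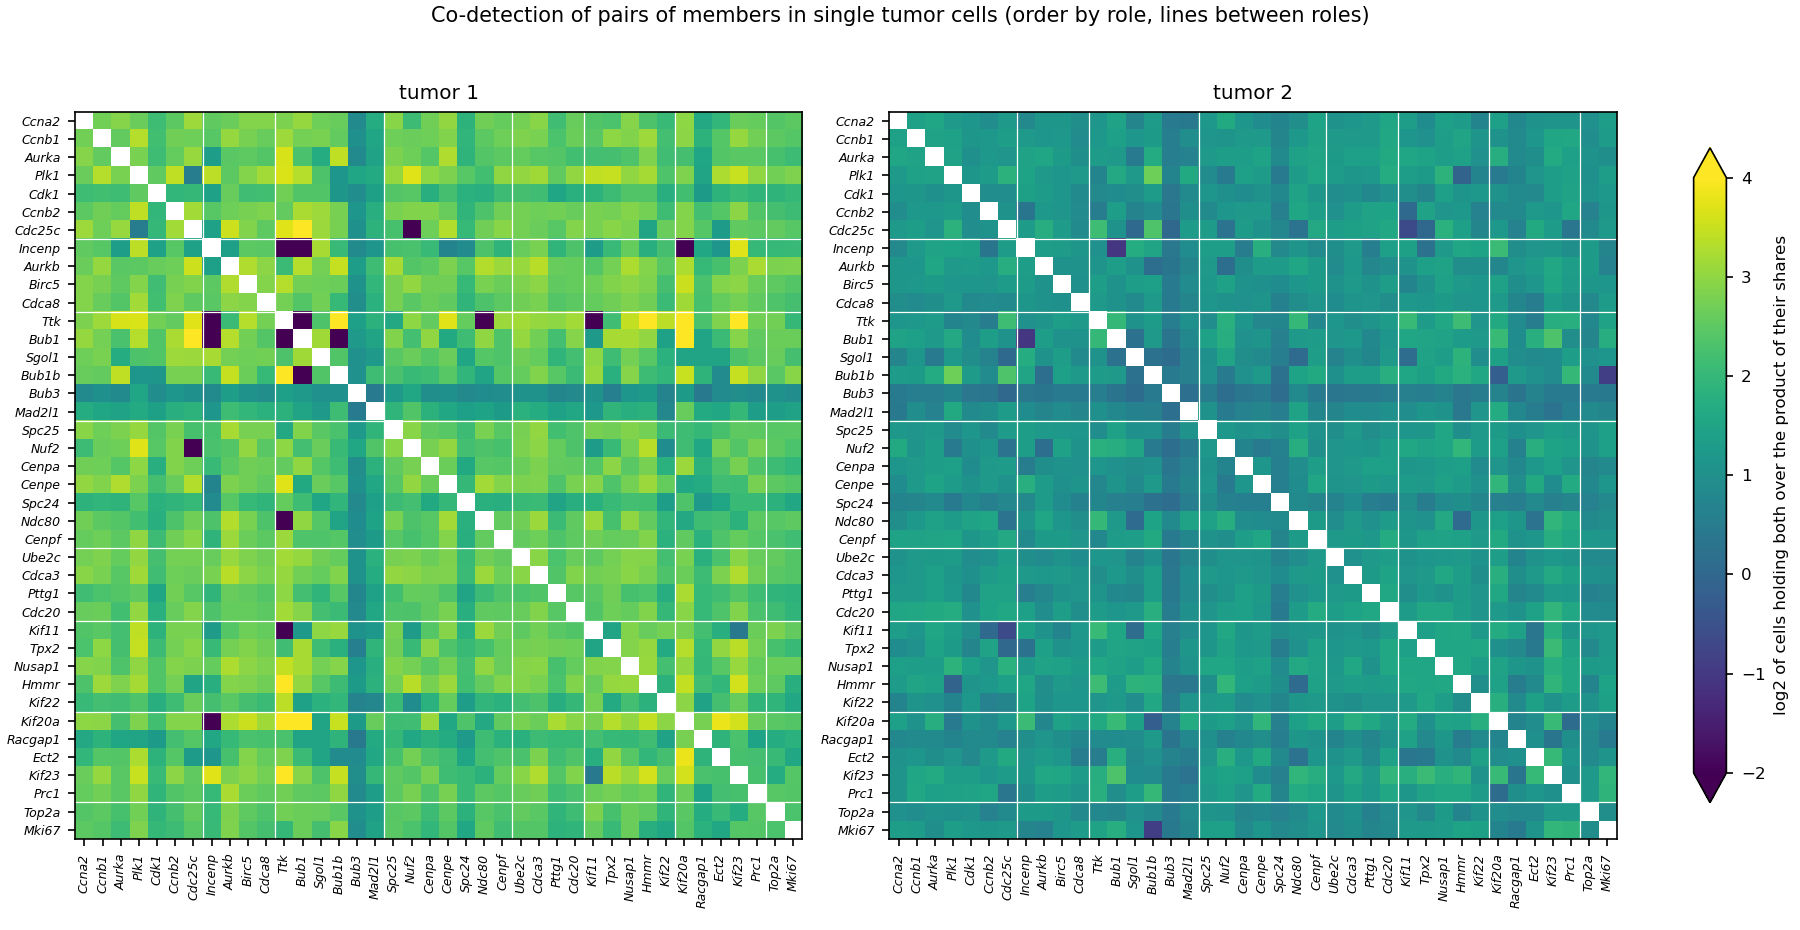
Log2 of the cells that hold both members of a pair over the number given by the product of their shares, for tumor 1 (left) and tumor 2 (right), with members on both axes in order of role and pairs seen in 0 cells drawn at the lowest color. Values lie above 0 for 772 of 780 pairs on the left and 775 on the right, with median ratios, before the log2, of 5.46 and 2.21.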

How the data were processed

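The authors deposited 1 table of UMI counts per gene and barcode for each library. Their notes name mm10, Cell Ranger and Seurat, with versions not given in the sources used here. The study clustered cells in Seurat and filtered on 500 detected genes and 10% mitochondrial transcripts. The deposited tables still hold barcodes with fewer genes, and the same limits were applied here. The members and lists were chosen with earlier results of these data known, and the limit of 5 markers that sets classes apart was set after values were seen. Cells were clustered with Seurat 5.3.0 in R 4.3.3 (1000 variable genes, 10 components, resolution 0.8). Scrublet, through scanpy 1.11.5, called 0 doublets in each library, so it did not work here, and its highest scores were removed only as an alternative. Libraries held 5285038 and 8291430 UMIs over 4514 and 3816 barcodes.

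UMIs were summed over tumor cells and divided by their total. Ratios have exact conditional binomial intervals and shares Clopper-Pearson intervals, all at 95%, which cover counting error only. With 1 library per tumor no test was run. On counts of 13300 genes simulated with Poisson counting error only, 96.0% of the ratio intervals held the planted ratio. That simulation had no variation between cells or mice and did not check the share intervals. A gene entered the comparison with at least 10 UMIs. Cells were thinned to 1000 UMIs without replacement (seed 1), and shallower cells were left out. TMM factors came from edgeR 4.0.16. Positions and the motif search used Python 3.11.15 with pandas 2.3.3 and scipy 1.17.1. All 40 members were named, and a few other genes that the rule would name are not reported here. Of other lists, the text names the 3 genes of each subgroup with most UMIs, in part, the 10 genes most correlated with the members, and leading genes of clusters. Others were chosen after their values were seen: *Foxm1*, *Mybl2*, *Lin52*, *Stag2*, *Wapl*, 3 neuroendocrine markers, the printed promoters and the pairs of 1 complex.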

Additional observations from a re-analysis of the deposited data

Results flagged for a closer look

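Barcodes with 500 or fewer detected genes, which entered no comparison, also held the members. In tumor 1 the 40 members made up 2050 CPM (1947 to 2158, 1473 UMIs) over 1321 such barcodes, which is 62.2% of the tumor cell level. In tumor 2 they made up 3245 CPM (2991 to 3514, 604 UMIs) over 248 barcodes, or 59.8% of it. A count of 0 would allow up to 4.18 and 16.1 CPM (3 counts), and each of the 40 members had a UMI among these barcodes in each library. Their median depth was 517 and 686 UMIs. The difference between the libraries has the same direction as in the retained cells. Whether these barcodes are small cells or droplets with free RNA was not tested.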

How the results depend on the processing

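The summed log2 ratio of tumor 1 over tumor 2, -0.72, stayed negative in each alternative run. It was -0.76 with more than 200 detected genes, -1.06 with TMM factors, -0.94 with mitochondrial and ribosomal genes left out of the total, -1.08 relative to the median gene, -0.76 over all retained cells, -0.82 without the 5% of cells with most UMIs and -0.77 without the highest Scrublet scores. The 11 members past 2-fold became 18 with TMM factors and 21 relative to the median gene. *Cenpf* turned to -0.20 with TMM factors, -0.079 without mitochondrial and ribosomal genes, -0.22 relative to the median gene and -0.00 (-0.0029) without the deepest cells, and *Prc1* to -0.010 with TMM and -0.032 relative to the median gene. Shares move with depth by construction. At 2000 UMIs, 500 UMIs and without thinning the median share was 14.7%, 2.73% and 6.52% in tumor 1 and 14.9%, 3.83% and 13.96% in tumor 2. The gap in median share between the tumors was nearly lost at 2000 UMIs, among the deeper cells that this limit kept. Median depths of tumor cells were 1212.5 UMIs in tumor 1 and 1983 in tumor 2, so most cells of each tumor were left out. Mitosis-rich cells were deeper than the others, and how far this selection moved the median shares was not tested. Cells past the limit of 5 members were 28.7% and 7.79% of tumor 1 and 56.8% and 17.1% of tumor 2 at 2000 and 500 UMIs. With limits of 3 and 8 members these were 17.3% and 9.30%, and 45.96% and 18.6%. Without the deepest cells they were 10.7% and 31.0%, and without clusters led by markers of another cell type 13.6% and 39.1%. The mean number of members in these cells was 16.9 and 8.94 in tumor 1 and 11.5 and 6.86 in tumor 2 at 2000 and 500 UMIs. The median of other members rose to 17.1 and 12.1 at 2000 UMIs. Macrophage-like cells of tumor 2 had 2347 CPM when clustered without the cell cycle lists. Of the values of single members, 306 moved within their interval, 88 moved beyond it and the 6 above turned. *Cdc25c* and *Ndc80*, whose intervals include 0, also took the other sign in some of these, in 8 and 2 of the first and second counts. No paired analysis was possible because each tumor has 1 library.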
